A study of Homo sapiens with 6 samples.

Results

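The genes described here are 44 genes of DNA replication and of the passage from G1 into S phase, chosen by name and read in every library of a study of the SKM-1 cell line. All 44 are among the 23519 genes that appear in each of the 3 deposited tables, and 43 reached the mean of 10 normalised reads set for a test. They were sorted by role into 17 genes of helicase loading and activation, 15 of polymerases and fork factors, 4 of nucleotide synthesis and 8 G1/S cyclins and regulators.

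SKM-1 is a human acute myeloid leukaemia cell line, and the study compared its poly-A RNA with and without 2 agents, given alone and together. There were 2 untreated libraries (untreated 1 and 2), 2 libraries of cells given BOR (BOR 1 and 2), 1 of cells given VEM, which is vemurafenib, an inhibitor of the BRAF kinase, and 1 of cells given VEM and BOR together (VEM+BOR). The labels give no dose, time or vehicle, do not say what BOR stands for, and name no separate cultures, so each p-value reflects only how far these libraries scatter, which could be a technical matter. All 6 libraries come from 1 cell line, and the replicate numbers used here only name the libraries.

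Each library held between 17252404 and 18507606 reads assigned to genes, as recovered from the values. All 8 myeloid leukaemia markers were at 10 normalised reads or more in every library, and the 4 T cell markers were listed at 0 or not listed. BOR 2 stood apart from the other 5 libraries: across genes its log2 values correlated with theirs at 0.86 to 0.879, while the other pairs reached 0.964 to 0.985. The counts of the BOR pair differed by a chi-square of 261 per degree of freedom, against 40.9 for the untreated pair, and 3.14% of the reads of BOR 2 were mitochondrial against 4.23% to 5.4% elsewhere. BOR results are therefore given for both BOR libraries, for BOR 1 alone and for BOR 2 alone.

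Before S phase, the origin recognition complex (ORC1 to ORC6), CDC6 and CDT1 load the ring-shaped MCM2-7 helicase onto origins, and CDC45 and the GINS complex then switch it on. DNA polymerase alpha with primase starts each strand, polymerases delta and epsilon extend it on the PCNA clamp, and thymidylate synthase, thymidine kinase and ribonucleotide reductase supply the nucleotides. D-type and E-type cyclins drive the RB protein off E2F transcription factors, which switch on most of these genes in proliferating cells.

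The promoters were read from RefSeq (GRCh38.p14), which gave an entry for 37 of the 44 genes. Either strand of the 250 bases before the start was searched for the E2F words TTTGGCGC, TTTCCCGC, TTTGCCGC and TTTCGCGC, and overlapping matches were counted separately. At least 1 word was present in 15 of 37 promoters (40.5%), against 761 of all 27305 promoters (2.79%) and 495 of the 12153 promoters of protein-coding genes in the tables (4.07%). By role, words were found in 5 of 14 helicase promoters, 6 of 14 polymerase and fork promoters, 1 of 4 nucleotide promoters and 3 of 5 G1/S promoters. The word CCAAT was in 20 of 37 (54.1%, against 33% of all promoters) and TTTGAA, the cell cycle homology region word of mitosis genes, in 1 of 37 (2.7%, against 13.6%). A match describes the letters only, and the data hold no binding measurement.

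The 5 windows that follow were picked from promoters with E2F words and belong to genes whose levels in BOR 2 ran from 5.37 times to 0.147 times the untreated mean. They are 120 bases long, except that of POLA1, which was lengthened to 145 bases to take in its word. Each is the upstream sequence on the gene's strand, ending at the base before the RefSeq start, with E2F words on either strand in capitals. They lie at chr20:33686386-33686505 (E2F1, minus strand), chr20:5126623-5126742 (PCNA, minus), chr2:135876444-135876563 (MCM6, minus), chr12:132687343-132687462 (POLE, minus) and chrX:24693773-24693917 (POLA1, plus).
E2F1: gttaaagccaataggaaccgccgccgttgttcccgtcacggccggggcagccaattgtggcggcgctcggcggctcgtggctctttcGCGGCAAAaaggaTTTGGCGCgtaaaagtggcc
PCNA: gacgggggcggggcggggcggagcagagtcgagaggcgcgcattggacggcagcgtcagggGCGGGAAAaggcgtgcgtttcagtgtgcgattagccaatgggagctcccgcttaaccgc
MCM6: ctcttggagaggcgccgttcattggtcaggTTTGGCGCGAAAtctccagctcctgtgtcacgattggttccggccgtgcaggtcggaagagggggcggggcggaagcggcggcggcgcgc
POLE: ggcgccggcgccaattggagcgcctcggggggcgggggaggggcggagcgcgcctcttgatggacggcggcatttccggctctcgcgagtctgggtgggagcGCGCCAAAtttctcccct
POLA1: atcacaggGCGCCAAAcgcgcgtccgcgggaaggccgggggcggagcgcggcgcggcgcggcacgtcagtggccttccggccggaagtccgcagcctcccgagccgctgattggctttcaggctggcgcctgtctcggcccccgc

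Levels are given as normalised read counts on 1 scale for the 6 libraries, and only values per kilobase of gene length are compared between genes. That scale is set by size factors, and levels and ratios by gene are on it unless stated. Scaled to the library total, the BOR 2 ratios were lower, for example 3.57 for E2F1 and 0.66 for GMNN. The place of BOR 2 relative to the untreated range can therefore differ between the scales. In untreated cells MCM7 had the highest level per kilobase. The mean of the 2 untreated libraries was 3112 per kilobase for MCM7, 1757 for MCM3, 1579 for MCM4, 1206 for MCM2, 970 for MCM6 and 564 for MCM5. PCNA reached 2147 per kilobase, FEN1 1410, CCND3 1304 and TK1 1273. At the other end were POLA2 at 61.4, CCNE2 at 42.4, CCND2 at 42 and E2F2 at 0.659 per kilobase. E2F2, an activating E2F factor, had, in normalised reads, 5.25 and 1.94 in untreated 1 and 2, 0 in BOR 1, 13.3 in BOR 2, 1.82 in VEM and 9.96 in VEM+BOR. It was thus close to the limit of these libraries, was left out of the main test and is given no fold.

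**Figure D1:**
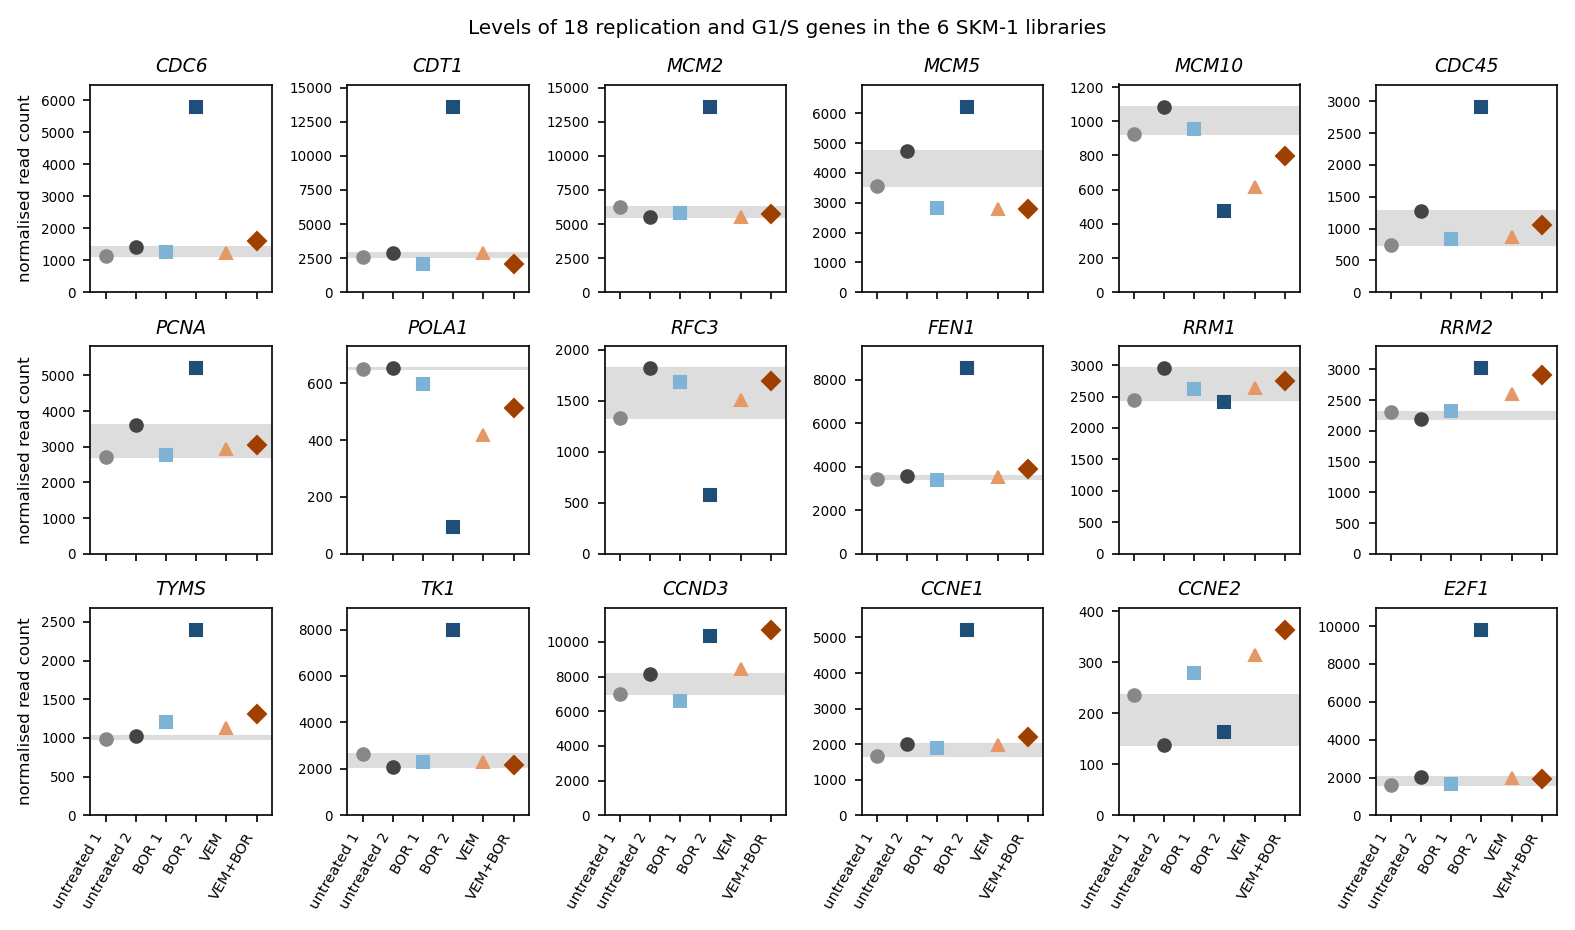
Levels of 18 of the genes, 1 panel a gene, with the 6 libraries on the x axis and normalised read counts on a linear y axis from 0; the grey band spans the 2 untreated libraries. BOR 2 (dark blue square) is far above the band for CDC6, CDT1, E2F1, TK1 and CCNE1 and far below it for POLA1 and RFC3, while the other 3 treated libraries stay in or near the band for most genes.

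Between BOR and untreated cells, with both BOR libraries, no replication or G1/S gene passed the test. limma called 0 of 15382 genes at an adjusted p under 0.05 (0%) and 0 of the 43 tested members, whose smallest Benjamini-Hochberg adjusted p was 0.968. At an unadjusted p under 0.05 there were 38 genes (0.247%) and 0 members. On the reads recovered from the values, edgeR called 0 genes and DESeq2 called 35, with 0 members in each. The median log2 change of the 43 members was 0.321, against 0.0354 over all genes tested, and 33 members were above 0. Both BOR libraries lay above both untreated libraries for 4 members (9.30% of 43), GINS4, RRM2, TYMS and UHRF1, where 11.7% of all genes did so. Both lay below for 1 member (2.33%), POLA1, against 8.24% of all genes. Neither share of members exceeds that of all genes. Scaling each library to its total in place of its size factor moved the median of all genes to -0.263 and that of the members to 0.024, and left the gap between them at 0.287 (0.286 before). Among the members given in full, the fitted BOR changes of MCM5, PCNA, RRM2, CCND2, CCND3 and CCNE2 turned below 0 under that scaling. The signs of the fitted changes of the other members were not followed.

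The 2 BOR libraries differed from each other. BOR 1 was close to untreated cells: its median member differed from the untreated mean by -0.0659 on the log2 scale (29 of 43 below 0), and without BOR 2 limma called 0 members. In BOR 2 the median was 0.756, with 34 members above 0 and 9 below, against 0.0413 over all genes. There, 17 of 43 members (39.5%) were over 2-fold above the untreated mean on the log2 scale (a difference above 1 from the mean of the 2 untreated log2 values), against 16.4% of all genes, and 3 (6.98%), POLA1, RFC3 and MCM10, were over 2-fold below it, against 25.4%. GINS2 is 1 of the 17 on that scale, with a difference of 1.01, while its ratio to the mean of the untreated reads is 1.96. These counts are relative to the other genes of the library: scaled to the library total, the median of all genes in BOR 2 was -0.556 and that of the members 0.157, with 4 members (9.3%) over 2-fold higher, namely CDC6, CDT1, TK1 and E2F1, against 6.3% of all genes, and 4 (9.3%) over 2-fold lower, MCM10, POLA1, PRIM1 and RFC3, against 37.4%. On the library-total scale MCM6, GINS1, POLA2, PRIM2, POLE, RFC5, RRM2, CCND2 and CCND3, which were above the untreated mean by size factors, lay below it in BOR 2. When BOR 2 alone was set against the untreated pair, limma called 12 members higher (27.9%, against 9.74% of all genes) and 3 lower (6.98%, against 16.3%). That fit assumes that the lone library varies as the untreated ones do, and it describes 1 library that stands apart, not the treatment. Nothing in the labels separates the 2 BOR libraries, and the source of their difference was not tested. In bulk RNA, a different share of cells in S phase and a different amount of RNA per cell cannot be told apart.

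The tested members that stood farthest from untreated cells in BOR 2 lie, in the tables' coordinates, which equal those of GENCODE 29 on GRCh38, at the following loci: E2F1 (ENSG00000101412, chr20:33675683-33686404), CDT1 (ENSG00000167513, chr16:88803213-88809258), CDC6 (ENSG00000094804, chr17:40287633-40304657) and POLA1 (ENSG00000101868, chrX:24693919-24996986). All are protein-coding genes. In the helicase loading group, the licensing factors had the highest levels relative to untreated cells in BOR 2. CDC6, the ATPase that brings the helicase to the origin complex, stood, in normalised reads, at 1132 and 1404 in untreated 1 and 2, 1271 in BOR 1, 5789 in BOR 2, 1217 in VEM and 1592 in VEM+BOR. CDT1, its partner in loading, was at 2604 and 2873 in untreated 1 and 2, 2056 in BOR 1, 13593 in BOR 2, 2850 in VEM and 2055 in VEM+BOR. BOR 2 was thus 4.56 times the untreated mean for CDC6 and 4.96 times for CDT1, while BOR 1 was 1 and 0.751 times. The fitted log2 changes of CDC6 (± SE, limma) were 1.11 ± 0.76 for BOR, -0.058 ± 0.37 for VEM and 0.32 ± 0.37 for VEM+BOR, and those of CDT1 were 0.95 ± 0.88 for BOR, 0.053 ± 0.38 for VEM and -0.43 ± 0.37 for VEM+BOR. VEM+BOR was above both untreated libraries for CDC6 and below both for CDT1, and no fitted change of either gene passed the test. GMNN, geminin, which holds CDT1 inactive after licensing, did not follow CDT1: it stood at 986 and 1220 in untreated 1 and 2, 951 in BOR 1, 1096 in BOR 2, 914 in VEM and 992 in VEM+BOR, and its ratio in BOR 2 was 0.994. ORC1, the origin complex subunit that comes and goes with the cell cycle, was 2.72 times the untreated mean in BOR 2 and 0.769 times in BOR 1, and ORC6 was 2.06 and 1.01 times.

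The 6 subunits MCM2 to MCM7 form the ring in equal numbers, and their RNA stood at unequal ratios in BOR 2. MCM7 had 11086 and 16212 in untreated 1 and 2, 11681 in BOR 1, 33974 in BOR 2, 11806 in VEM and 12724 in VEM+BOR. MCM2 had 6282 and 5546 in untreated 1 and 2, 5796 in BOR 1, 13592 in BOR 2, 5493 in VEM and 5719 in VEM+BOR, and MCM3 had 5886 and 6938 in untreated 1 and 2, 5839 in BOR 1, 12555 in BOR 2, 5763 in VEM and 5723 in VEM+BOR. For these 3 subunits BOR 2 was 2.49, 2.3 and 1.96 times the untreated mean, and the other treated libraries stayed between 0.856 and 0.98 times. MCM4 was 1.69 times in BOR 2 and MCM6 1.24 times. MCM5 stood at 3560 and 4721 in untreated 1 and 2, 2839 in BOR 1, 6220 in BOR 2, 2799 in VEM and 2776 in VEM+BOR. By size factors BOR 1, VEM and VEM+BOR were thus all below both untreated libraries while BOR 2 was above both. Scaled to the library total, the ratio of MCM5 in BOR 2 was 1. The fitted log2 changes of MCM5 were 0.039 ± 0.55 for BOR, -0.56 ± 0.40 for VEM and -0.58 ± 0.40 for VEM+BOR, the lowest of the members in VEM+BOR, with a 95% interval there of -1.40 to 0.25. MCM3, MCM4 and MCM6 were also below both untreated libraries in VEM and in VEM+BOR, with ratios between 0.78 and 0.899.

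MCM10, which joins the helicase as it fires and is no part of the ring, lay below the untreated libraries in BOR 2, with 926 and 1085 in untreated 1 and 2, 957 in BOR 1, 474 in BOR 2, 613 in VEM and 798 in VEM+BOR. VEM and VEM+BOR also lay below both untreated libraries, and the VEM change of -0.71 ± 0.37 (unadjusted p = 0.069, adjusted p = 1 in limma) was the lowest of all members. CDC45, which together with GINS activates the ring, had 749 and 1279 in untreated 1 and 2, 832 in BOR 1, 2913 in BOR 2, 865 in VEM and 1060 in VEM+BOR. Its untreated libraries differed by more than VEM and VEM+BOR differed from them, and only BOR 2 left their range. GINS2 stood at 1885 and 3104 in untreated 1 and 2, 1903 in BOR 1, 4882 in BOR 2, 1754 in VEM and 1640 in VEM+BOR. VEM and VEM+BOR lay below both untreated values, with fitted changes of -0.47 ± 0.40 and -0.57 ± 0.39. The other GINS genes lay above the untreated mean in VEM+BOR, where the ratio to the untreated mean was 1.05 for GINS1, 1.05 for GINS3 and 1.17 for GINS4, against 0.658 for GINS2. In VEM the ratios were 1.05 for GINS1, 0.883 for GINS3, 1.07 for GINS4 and 0.703 for GINS2. In BOR 2 these 4 genes were 1.37, 2.95, 1.9 and 1.96 times the untreated mean for GINS1, GINS3, GINS4 and GINS2 in turn.

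Among the polymerase genes, the lowest ratio in BOR 2 was that of POLA1, the catalytic subunit of the polymerase alpha that starts every strand. It stood at 651 and 652 in untreated 1 and 2, 596 in BOR 1, 96 in BOR 2, 419 in VEM and 513 in VEM+BOR. All 4 treated libraries were below the 2 untreated ones, which agreed closely, and BOR 2 was 0.147 times their mean. The fitted log2 changes of POLA1 were -1.44 ± 0.88 for BOR, -0.64 ± 0.38 for VEM and -0.36 ± 0.38 for VEM+BOR, with 95% intervals of -3.56 to 0.69, -1.44 to 0.16 and -1.15 to 0.43, each spanning 0. POLA2, the regulatory subunit of the same enzyme, was 1.13 times the untreated mean in BOR 2, and the primase subunits PRIM1 and PRIM2 were 0.564 and 1.34 times. The 4 RNAs of this 1 enzyme complex therefore ranged from 0.147 to 1.34 times within BOR 2, and from 0.644 to 0.901 times in VEM. Of the exon bases of POLA2, 35.1% are shared with another annotated gene on the same strand, so its reads are uncertain. For PRIM1, 14.9% are shared with AC117378.1 on the same strand.

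The extending polymerases did not share the low ratio of POLA1. POLE, the leading strand polymerase, had 1814 and 2005 in untreated 1 and 2, 1780 in BOR 1, 1977 in BOR 2, 1421 in VEM and 1659 in VEM+BOR. VEM and VEM+BOR were below both untreated libraries and BOR 2 lay between them, with fitted changes of -0.020 ± 0.43 for BOR, -0.43 ± 0.37 for VEM and -0.21 ± 0.37 for VEM+BOR. POLD1, the lagging strand polymerase, was 1.96 times the untreated mean in BOR 2 and 0.827 times in VEM. PCNA, the clamp that both ride on, had 2712 and 3605 in untreated 1 and 2, 2770 in BOR 1, 5201 in BOR 2, 2932 in VEM and 3053 in VEM+BOR. By size factors BOR 2 was the only library outside the untreated range for PCNA. Scaled to the library total, its ratio to untreated was 1.1.

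RFC2 to RFC5 encode small subunits of the loader that opens the PCNA clamp, and they split in BOR 2. RFC3 stood at 1331 and 1817 in untreated 1 and 2, 1684 in BOR 1, 575 in BOR 2, 1506 in VEM and 1693 in VEM+BOR. RFC2 was 2.27 times the untreated mean in BOR 2, RFC5 1.47, RFC4 0.868 and RFC3 0.365, while in BOR 1 the 4 genes were between 0.912 and 1.07 times. FEN1, the flap nuclease that trims Okazaki fragments, had 3426 and 3561 in untreated 1 and 2, 3408 in BOR 1, 8526 in BOR 2, 3526 in VEM and 3910 in VEM+BOR. It was 2.44 times the untreated mean in BOR 2, and LIG1, the ligase that seals the same fragments, was 2.29 times. RPA1 and RPA2, which coat single-stranded DNA, were 1.51 and 2.21 times.

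Nucleotide synthesis split along its enzymes. TYMS, thymidylate synthase, had 992 and 1031 in untreated 1 and 2, 1205 in BOR 1, 2396 in BOR 2, 1123 in VEM and 1305 in VEM+BOR. All 4 treated libraries were above both untreated ones, with fitted changes of 0.75 ± 0.51 for BOR, 0.14 ± 0.36 for VEM and 0.35 ± 0.36 for VEM+BOR, none of which passed the test. TYMS shares 39.1% of its exon bases with ENOSF1 on the opposite strand, and no step that marks strand is named, so part of its reads may belong to that gene. TK1, thymidine kinase, had 2636 and 2103 in untreated 1 and 2, 2281 in BOR 1, 7986 in BOR 2, 2318 in VEM and 2190 in VEM+BOR. Only BOR 2 left its untreated range, at 3.37 times the mean. RRM1, the large subunit of ribonucleotide reductase, had 2440 and 2948 in untreated 1 and 2, 2620 in BOR 1, 2412 in BOR 2, 2640 in VEM and 2750 in VEM+BOR, and RRM2, the small subunit made in S phase, had 2311 and 2200 in untreated 1 and 2, 2328 in BOR 1, 3017 in BOR 2, 2593 in VEM and 2915 in VEM+BOR. On the size factor scale RRM2 was above both untreated libraries in all 4 treated libraries, at 1.03, 1.34, 1.15 and 1.29 times their mean in BOR 1, BOR 2, VEM and VEM+BOR, while RRM1 stayed within their range except in BOR 2, where it was just below. The fitted changes of RRM2 were 0.24 ± 0.43 for BOR, 0.20 ± 0.37 for VEM and 0.36 ± 0.37 for VEM+BOR. Pseudogene copies of TYMS and RRM2 are annotated and may take or lend reads. RRM2 also shares 20.2% of its exon bases with AC007240.1 on the same strand, so its reads are uncertain.

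**Figure D2:**
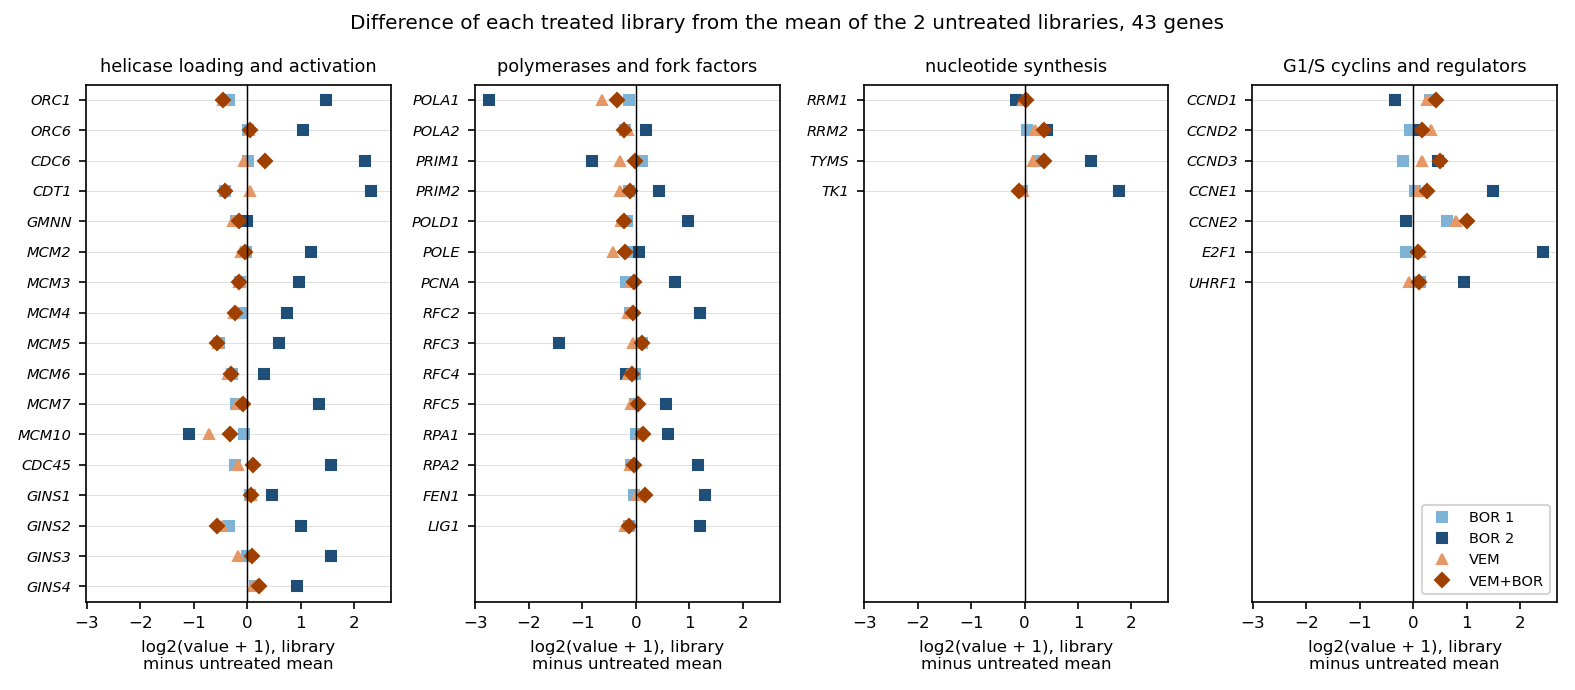
Difference of each treated library from the mean of the 2 untreated libraries on the log2(value + 1) scale (x axis) for the 43 genes above the minimum level, 1 row a gene and 1 panel a role. BOR 2 runs from -2.75 for POLA1 to 2.43 for E2F1, and BOR 1, VEM and VEM+BOR lie near 0 for most genes.

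Of the G1/S regulators, E2F1, the factor that drives many of the other genes, had 1621 and 2027 in untreated 1 and 2, 1641 in BOR 1, 9804 in BOR 2, 1969 in VEM and 1928 in VEM+BOR. It had the highest ratio of the members in BOR 2, 5.37 times the untreated mean, and the other 3 treated libraries lay within the untreated range. Its fitted log2 changes were 1.15 ± 0.85 for BOR, 0.11 ± 0.37 for VEM and 0.076 ± 0.37 for VEM+BOR, and the BOR interval ran from -0.91 to 3.21. CCNE1, cyclin E1, had 1676 and 2018 in untreated 1 and 2, 1886 in BOR 1, 5214 in BOR 2, 1965 in VEM and 2192 in VEM+BOR. CCNE2, cyclin E2, had 236 and 137 in untreated 1 and 2, 279 in BOR 1, 164 in BOR 2, 314 in VEM and 364 in VEM+BOR. The 2 E-type cyclins parted in BOR 2, at 2.82 and 0.88 times the untreated mean, while CCNE2 was 1.68 times in VEM and 1.95 times in VEM+BOR, above both untreated libraries. CCNE2 had the highest fitted change of the members in both of these comparisons, 0.79 ± 0.48 and 0.999 ± 0.47. The latter had an unadjusted p of 0.0457 and an adjusted p of 1 in limma. Its untreated libraries are themselves far apart, and 37% of its exon bases are shared with INTS8 on the opposite strand.

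The D-type cyclins answer growth signals early in G1. CCND3 had 6980 and 8157 in untreated 1 and 2, 6580 in BOR 1, 10360 in BOR 2, 8446 in VEM and 10693 in VEM+BOR. By size factors it was above both untreated libraries in BOR 2, VEM and VEM+BOR, and its change in VEM+BOR was 0.49 ± 0.45. Scaled to the library total, its ratio in BOR 2 was 0.906. CCND1 had 922 and 588 in untreated 1 and 2, 919 in BOR 1, 580.2 in BOR 2, 878 in VEM and 989 in VEM+BOR. BOR 1 and VEM lay between its 2 untreated libraries, BOR 2 just below them and VEM+BOR above them, with a VEM+BOR change of 0.41 ± 0.39. CCND2 had 262 and 339.6 in untreated 1 and 2, 286 in BOR 1, 323 in BOR 2, 376 in VEM and 335 in VEM+BOR, and its VEM change of 0.33 ± 0.42 was the second highest of the members. UHRF1, which reads the hemimethylated DNA left behind the fork, had 2489 and 2410 in untreated 1 and 2, 2667 in BOR 1, 4754 in BOR 2, 2324 in VEM and 2652 in VEM+BOR, so BOR 2 was 1.94 times the untreated mean and the other treated libraries were between 0.949 and 1.09 times.

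The 12 members that limma called higher in BOR 2 alone were ORC1, CDC6, CDT1, CDC45, GINS3, RFC2, FEN1, LIG1, TYMS, TK1, CCNE1 and E2F1, and the 3 called lower were MCM10, POLA1 and RFC3. The lowest adjusted p-values were those of POLA1 (-2.75 ± 0.38, adjusted p = 0.000838), E2F1 (2.44 ± 0.38, adjusted p = 0.0014) and CDC6 (2.20 ± 0.36, adjusted p = 0.00191), all in limma. By role and on the same log2 scale, 9 of 17 helicase genes, GINS2 among them, were over 2-fold higher in BOR 2 (52.9%) and 1 over 2-fold lower (5.88%). The counts were 4 and 2 of 15 for polymerase and fork genes (26.7% and 13.3%), 2 and 0 of 4 for nucleotide genes and 2 and 0 of 7 for G1/S genes, against 16.4% and 25.4% of all genes. They hold for size factors, since scaling to the library total left 4 members over 2-fold higher in all.

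The spread of the members within BOR 2 moved with the base composition of their transcripts. Across the 43 genes, Spearman's rho between the log2 difference of BOR 2 from untreated and the GC content of the longest GENCODE 29 transcript was 0.622, and across 12741 protein-coding genes it was 0.518. The points share 1 library, so these are descriptions of it. In BOR 1 the values were -0.383 and -0.361, in VEM 0.00649 and -0.0369, and in VEM+BOR -0.175 and -0.23. The 17 members over 2-fold higher had a median GC content of 52.9%, the 23 within 2-fold had 45.8%, and POLA1, RFC3 and MCM10 had 42.9%, 39.1% and 43.3%. GC content did not order all of them: CDC6, at 45.5%, was 4.56 times the untreated mean and CCND2, also at 45.5%, was 1.07 times, while POLE, at 56.4%, was 1.04 times and LIG1, at 56.3%, was 2.29 times. In the fifth of protein-coding genes with GC content from 41.2% to 46.2%, the median difference was -0.375 over 2548 genes and 0.369 over the 14 members there. In the fifth from 46.2% to 52.6% it was 0.43 over all and 1.01 over 11 members, and in the fifth from 52.6% to 59% it was 0.606 over all and 1.2 over 11 members. The BOR 2 differences also moved with transcript length, with a rho of -0.236 over the members and -0.314 over all protein-coding genes. With the span of the gene on the chromosome rho was -0.381 and -0.279 in turn. The part of base composition, length or span in the BOR 2 differences was not tested.

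**Figure D3:**
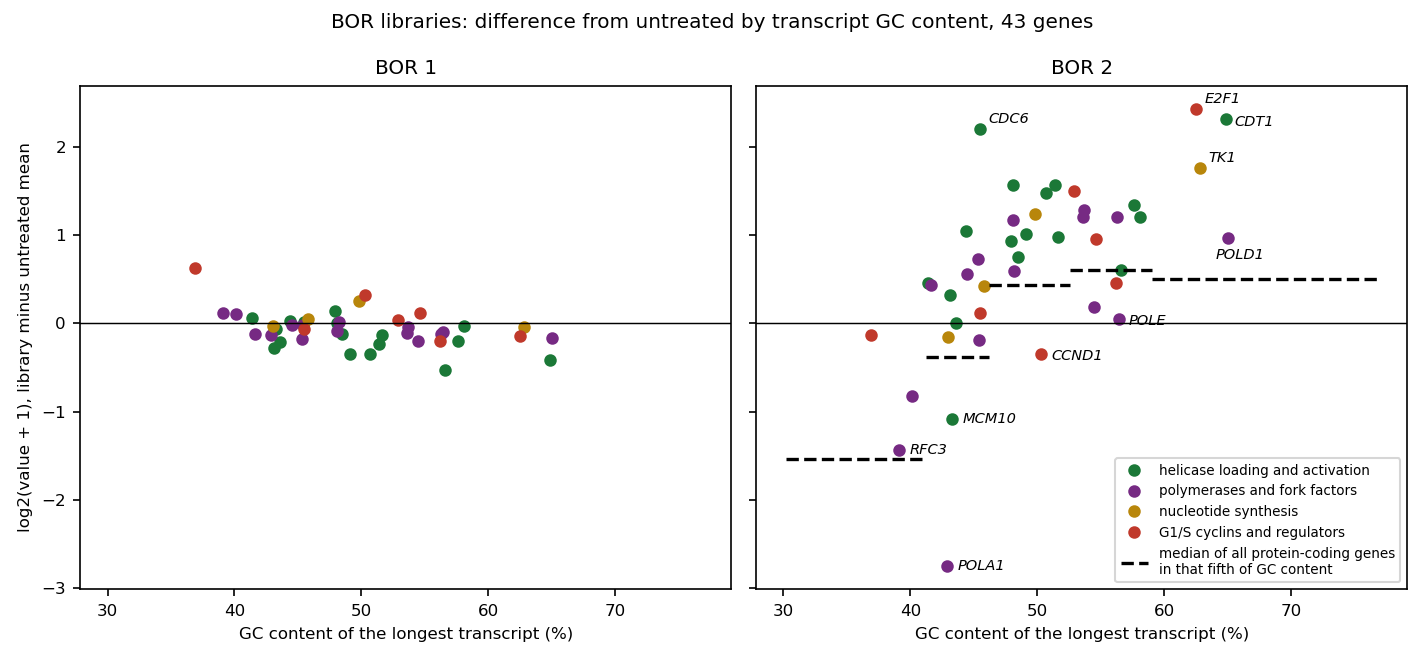
Difference from the untreated mean (y axis, log2(value + 1)) against the GC content of each gene's longest transcript (x axis, percent) for the 43 genes in BOR 1 and BOR 2, with dashed lines at the median of all protein-coding genes in each of 5 equal bins by GC content for BOR 2. In BOR 2 the points rise with GC content (rho of 0.622), with CDC6 well above and POLA1 well below genes of like GC content.

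E2F words stood before members that were high in BOR 2 and before members that were low. A word was present in 6 of 16 promoters of members over 2-fold higher (37.5%), in 6 of 17 within 2-fold (35.3%) and in 2 of 3 over 2-fold lower (66.7%), the latter being POLA1 and RFC3. The E2F1 and POLA1 windows printed above both carry such words.

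Between VEM and untreated cells no member passed the test, and the differences were small. limma called 7 of 15689 genes (0.0446%) and 0 of 43 members. At an unadjusted p under 0.05 there were 399 genes (2.54%) and 0 members. No count test of recovered reads was run for this comparison. The median log2 change of the members was -0.106, against 0.00217 over all genes, with 29 members below 0. VEM was below both untreated libraries for 17 members (39.5%), against 27.6% of all genes, and above both for 7 (16.3%), against 30.3%. Of those 17, 9 were helicase genes, 7 polymerase and fork genes and 1 a G1/S regulator, UHRF1. The median change was -0.185 for the helicase genes, -0.145 for the polymerase and fork genes, 0.0576 for the nucleotide genes and 0.156 for the G1/S genes.

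The 2 untreated libraries differed in these genes too. Untreated 2 was above untreated 1 for 36 of the 43 members, by a median log2 difference of 0.237, where the median of all genes was 0.00506. Against untreated 2 alone, the median member in VEM was -0.285, and against untreated 1 alone it was 0.042. By role, untreated 2 was above untreated 1 by a median of 0.307 for helicase genes and 0.239 for polymerase and fork genes, while the median of the nucleotide genes was -0.00769. The helicase and nucleotide groups therefore differed from each other between the 2 untreated libraries by more than they did between VEM and untreated.

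In VEM+BOR no member passed the test either. limma called 30 of 15606 genes (0.192%) and 0 of 43 members. At an unadjusted p under 0.05 there were 469 genes (3.01%) and 1 member, CCNE2. On recovered reads edgeR called 90 genes and DESeq2 62, with 0 members in each. The median log2 change of the members was -0.0465, against 0.0108 over all genes. VEM+BOR was below both untreated libraries for 13 members (30.2%), against 27.9% of all genes, and above both for 11 (25.6%), against 30.1%. These shares are near those of all genes. The role medians were -0.158 for helicase genes, -0.0604 for polymerase and fork genes, 0.188 for nucleotide genes and 0.24 for G1/S genes. Against untreated 2 alone the median member was -0.138, and against untreated 1 alone 0.125. The 3 comparisons share the untreated libraries, so their values are only set side by side.

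With VEM+BOR set against VEM, 1 library each and so with no test, the median member was higher by 0.0991 on the log2 scale, against 0.046 over all genes. Of the 43 members 34 were above 0, among them 14 of 15 polymerase and fork genes and 12 of 17 helicase genes, where 8508 of 15438 genes were. The lists of other genes described below leaned the same way. Above 0 were 33 of 43 other replication genes, 16 of 20 nucleotide genes, 20 of 27 G1/S regulators and 25 of 30 mitosis genes. The lean is therefore not particular to the members.

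**Figure D4:**
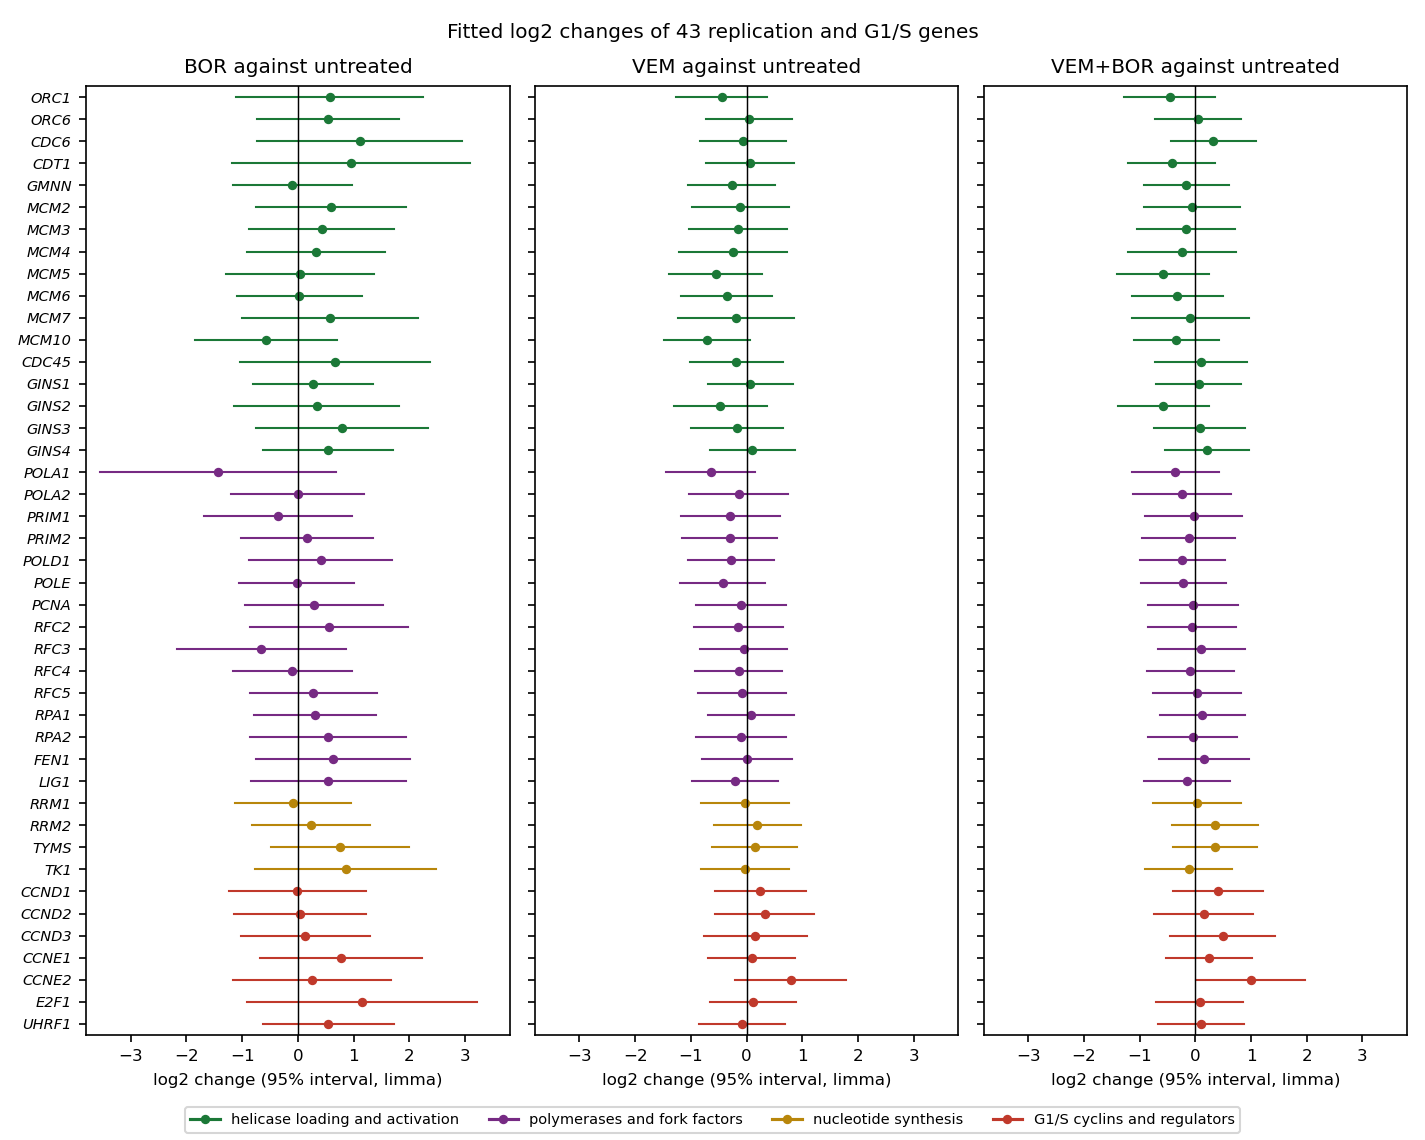
Fitted log2 change of each of the 43 genes (points) with its 95% interval from limma (lines), coloured by role, 1 panel a comparison. The interval of every gene spans 0 in the BOR and VEM panels, and CCNE2 in VEM+BOR is the only one that does not (0.02 to 1.98).

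Other genes of the same processes, from lists that hold none of the 44, were measured beside them. Of 43 other replication genes, 20 nucleotide synthesis genes, 27 tested G1/S regulators and 30 mitosis genes, none passed the test in any comparison, the smallest adjusted p being 0.336 for MKI67, the proliferation marker, in VEM. At an unadjusted p under 0.05 there were none for BOR, 1 replication gene, 3 G1/S regulators and 3 mitosis genes for VEM, where 2.54% of all genes were under it, and 2 G1/S regulators and 1 mitosis gene for VEM+BOR, where 3.01% were. Their median log2 changes for BOR were -0.438, 0.0687, 0.254 and -0.569 in that order. For VEM they were -0.144, -0.0511, 0.173 and -0.173, and for VEM+BOR -0.0318, 0.0539, 0.298 and -0.0233.

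In BOR 2, 3 of the 43 other replication genes were over 2-fold higher and 20 over 2-fold lower, where the members had 17 and 3 and all genes 16.4% and 25.4%. The counts were 2 and 4 of 20 for the nucleotide list, 9 and 5 of 27 for the G1/S list, and 2 and 18 of 30 for the mitosis list. These are shares by size factors. On the library-total scale the members had 4 and 4 and all genes 6.3% and 37.4%, and the wider lists were not counted on it. The origin complex itself split: ORC1 and ORC6 were 2.72 and 2.06 times the untreated mean, while ORC2, ORC3, ORC4 and ORC5 were 0.288, 0.144, 0.219 and 0.366 times. CDC7 and DBF4, the kinase pair that fires origins, were 0.134 and 0.103 times. The other replication genes over 2-fold lower had a median GC content of 40.1%, and rho with GC content was 0.757 over the 43.

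CDKN1A, which encodes the cyclin-dependent kinase inhibitor p21, had 851 and 351 in untreated 1 and 2, 642 in BOR 1, 9346 in BOR 2, 1226 in VEM and 1188 in VEM+BOR. It was 15.5 times the untreated mean in BOR 2, and its fitted changes were 2.17 ± 1.23 for BOR, 1.16 ± 0.45 for VEM and 1.10 ± 0.44 for VEM+BOR. MKI67 had 6973 and 5338 in untreated 1 and 2, 4095 in BOR 1, 719 in BOR 2, 1952 in VEM and 3539 in VEM+BOR. It was below both untreated libraries in every treated library, with fitted changes of -1.83 ± 0.83 for BOR, -1.65 ± 0.40 for VEM and -0.80 ± 0.41 for VEM+BOR. CDK1, the kinase that drives entry into mitosis, had 2497 and 2303 in untreated 1 and 2, 3635 in BOR 1, 735 in BOR 2, 4044 in VEM and 5132 in VEM+BOR, and so was high in BOR 1, VEM and VEM+BOR and low in BOR 2.

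The ends of each list by fitted change were as follows. For BOR, other replication genes ran from WDHD1 (-1.67) and DBF4 (-1.54) to MCM9 (0.72) and POLE4 (0.83). Nucleotide genes ran from PPAT (-1.15) and RRM2B (-0.64) to SHMT1 (0.56) and IMPDH2 (0.68). G1/S regulators ran from CDK6 (-1.21) and RBL1 (-1.20) to CDKN1A and CDKN1C (2.86), and mitosis genes from CENPE (-2.60) and TOP2A (-2.45) to KIF2C (0.47) and UBE2C (0.51). For VEM, the ends were TOPBP1 (-0.90), ORC3 (-0.61), RNASEH2B (0.24) and MTBP (0.53) among replication genes, and SAMHD1 (-0.66), ATIC (-0.34), TK2 (0.43) and DCK (0.46) among nucleotide genes. Among G1/S regulators they were RBL1 (-0.75), E2F4 (-0.46), CDKN2D (1.08) and CDKN1A, and among mitosis genes MKI67, CENPF (-1.42), PRC1 (0.20) and CDK1 (0.75). For VEM+BOR they were RNASEH2A (-0.69), ORC3 (-0.64), MTBP (0.64) and MCM9 (0.91), then ATIC (-0.15), SAMHD1 (-0.13), TK2 (0.66) and DCK (0.69). The G1/S ends were CDKN1C (-0.44), RBL1 (-0.14), CDKN2D (1.07) and CDKN1A, and the mitosis ends UBE2C (-1.34), MKI67, ANLN (0.26) and CDK1 (1.08). Some of these ends were low genes. In untreated 1 and 2, UBE2C had 38.5 and 51.3, RNASEH2A 32.4 and 48.4, PRC1 49.9 and 31, and CDKN1C 70.1 and 23.2. In VEM+BOR, UBE2C had 17.2, RNASEH2A 24.4 and CDKN1C 29.9, and in VEM, PRC1 had 45.5. The BOR change of CDKN1C came from BOR 2, with 2191 there and 40.2 in BOR 1.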

How the data were processed

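Poly-A RNA of SKM-1 cells was captured on poly-T beads, copied with random hexamers and sequenced as 150 bp pairs, per the labels' protocols, which name no step that marks strand. The submitters' processing notes name edgeR 3.22.5, DESeq2 1.20.0, featureCounts 1.5.0-p3, HISAT2 2.0.5 and CASAVA, with no role or order. No build is named in the sources used here. Coordinates of genes in the tables equal GENCODE 29 (GRCh38) for 26698 of 26704 genes and for all 44 members, and transcripts for GC content came from GENCODE 29. The 3 tables deposited by the authors, 1 per treated group with the untreated pair, hold normalised values: read counts divided by a size factor per library, a signal, not raw counts. Beside them stand the authors' log2 fold changes and p-values, which the text does not print.

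Values were whole multiples of 1 step per library (100% of values within 0.01), which gave back the reads. Untreated reads were equal between tables in all 23519 shared genes, so the 6 libraries were put on 1 scale by size factors over 17760 genes. In the VEM table the step of the VEM library, 0.991, is close to 1, and count tests were left out there. Each treated group was compared with the untreated pair on its own table, on log2(value + 1), over genes with a mean of at least 10, with limma 3.58.1 (R 4.3.3) and Benjamini-Hochberg adjustment at 0.05. A fold on this scale understates the change of low genes. VEM and VEM+BOR have 1 library each, so their spread was taken from the untreated pair (1 residual degree of freedom, moderated across genes). Intervals are 95% and cover the spread between these libraries only. The test was also run on simulated data in which every library had the spread of the untreated pair. That run cannot show how the test behaves where treated libraries scatter more. Other settings tried were pseudocounts of 0.5 and 5, no minimum, a minimum of 50, TMM factors, scaling to the library total, leaving out each replicate, all 6 libraries in 1 fit, and count tests of the recovered reads with DESeq2 1.42.0 and with edgeR 4.0.16. The fit of all libraries without each replicate and the library-total scaling of BOR 2 alone were added after seeing the data.

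The members and gene lists were chosen with earlier results of these data known. Full values are given for a fixed list of members and for the 2 highest and 2 lowest changes in each comparison. For a gene with several RefSeq promoter entries the first was used. Exons shared with other genes and pseudogene copies make some counts uncertain. This is stated only beside POLA2, PRIM1, TYMS, RRM2 and CCNE2. Shared exon bases also reach 22.7% for MCM2 and 21.2% for GINS4 on the opposite strand and 13.8% for CCND2 on the same strand. Further members share smaller parts. Pseudogene copies are also annotated for PCNA, RPA2, FEN1, RFC3, RFC5, CCND2 and CCND3.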

Additional observations from a re-analysis of the deposited data

How the results depend on the processing

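No member passed the threshold in any of the 3 comparisons under the alternatives run, except for BOR without BOR 1: 15 members on the table's own fit, where 4008 of 15371 genes passed, and 19 when all libraries were in 1 fit, where 4722 of 15410 genes passed. The leave-one-out fits of VEM and of VEM+BOR on their own tables had no residual degree of freedom and so no test. The BOR median, 0.321, ran from -0.062 without BOR 2 to 0.759 without BOR 1, from -0.066 to 0.756 in the fit of all libraries, and was 0.024 with scaling to the library total. The VEM median ran from -0.285 to 0.042, and the VEM+BOR median from -0.138 to 0.125 (0.133 in the fit of all libraries), as 1 untreated library or the other was left out. The VEM and VEM+BOR values from the tables' own fits have no test, for the reason given above.

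Signs were followed across settings only for the tested members whose values are given in full, so the lists below are not complete. Scaling to the library total turned the sign of BOR changes to -0.258 for MCM5, -0.014 for PCNA, -0.061 for RRM2, -0.266 for CCND2, -0.164 for CCND3 and -0.044 for CCNE2. It turned the sign of VEM changes to 0.003 for CDC6, 0.008 for RFC3, 0.032 for RRM1 and 0.032 for TK1. TMM factors gave -0.036 for MCM5 and -0.044 for CCND2 for BOR, and edgeR gave -0.061 for CCND2. With each library left out in turn, the BOR change of some of the members followed turned sign. It ran from -0.53 to 0.60 for MCM5, -0.34 to 1.01 for GINS2, -0.34 to 0.32 for CCND1 and -0.17 to 0.23 for CCND2. The range was -0.26 to 0.061 for GMNN, -0.10 to 0.060 for POLE and -0.23 to 0.054 for RRM1. It ran from -0.13 to 0.63 for CCNE2, -0.41 to 2.31 for CDT1, -0.023 to 1.21 for MCM2, -0.13 to 0.98 for MCM3, -0.20 to 1.34 for MCM7, -0.23 to 1.57 for CDC45 and -0.17 to 0.74 for PCNA. For the rest of those followed it ran from -1.43 to 0.12 for RFC3, -0.032 to 1.29 for FEN1, -0.042 to 1.76 for TK1, -0.19 to 0.46 for CCND3 and -0.14 to 2.44 for E2F1. Members that were not followed turned as well. ORC1, for example, had a fitted BOR change of 0.568, while BOR 1 alone differed from the untreated mean by -0.347 on the log2 scale. The cause of these turns was not tested. Of the other values by gene and role, 902 were counted as unchanged. For a gene with a test, that meant the same sign and the same side of the threshold. For role medians and for fits with no test, it meant a move smaller than the spread of the untreated pair. Leaving out 1 untreated library for VEM or VEM+BOR cannot move a gene past that spread, so signs there were not checked. Another 38 moved by more than that spread. The remaining values, all for BOR without BOR 1, lay farther from 0 than in the main fit.

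No paired analysis was possible because the labels carry no replicate numbers and the numbers used here only follow the order of the deposited samples. Depth kept E2F2 out of the test, and the other 43 members reached the minimum level.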
